A study of Mus musculus with 12 samples.

Results

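The genes described here code for granins and for the proteins that process prohormones, and they are 10 of the 44760 genes named in both deposited count tables. They are Scg5, Pcsk2, Pcsk1, Pcsk1n, Cpe, Chga, Chgb, Scg2, Scg3 and Vgf. The set was selected on the measured fall of Scg5 under nicotine at 18 months, and the other 9 were listed by name as its partners and as classic members of the pathway. Their nicotine values at 18 months are therefore a description with no test, and so is every age difference of Scg5. All 10 passed the filter on low counts in every fit, with 279 to 90364 counts per gene and library.

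Neuropeptides and peptide hormones are made as larger precursors that enter the regulated secretory pathway and are cut inside dense-core vesicles. The convertases coded by Pcsk1 and Pcsk2 cut the precursors after basic residues, and carboxypeptidase E, coded by Cpe, trims the residues left at the new end. Granins are acidic proteins that aggregate as vesicles form and are themselves cut into peptides. In the hippocampus these genes are expressed by principal neurons and by interneurons that hold peptides.

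The libraries were made from the hippocampus of male APPswe/PS1dE9 mice, which express amyloid precursor protein with the Swedish mutation together with presenilin 1 lacking exon 9 and form amyloid plaques. The 12 libraries fell into 4 groups of 3: mice of 7 months given saline, mice of 7 months given nicotine, and the same at 18 months. Nicotine hydrogen tartrate, labelled 48 mg/kg/h, or saline was given for 14 days from an osmotic pump under the skin. All groups carried both transgenes on a C57BL/6 background (N9B6), and mice without the transgenes were not analysed here. The labels do not say that libraries of a group came from separate animals, so p-values measure only the spread between these libraries.

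Depth was 21260068 to 29245972 counts per library. Of the counts of genes with a known transcript length, transcripts over 5000 nt took 23.2% to 24.1% in the 7-month libraries other than saline library 2, 32.5% in that library and 36.0% to 36.9% at 18 months. 7-month nicotine library 1 had 91.4 CPM (counts scaled to library size) of the pituitary transcript Gh, which had 0 to 1.53 CPM elsewhere. It also had 5995 CPM of the choroid plexus transcript Ttr, which had 2.34 to 1542 CPM elsewhere. At 18 months nicotine library 1 had 1379 CPM of Ttr and the other libraries of that age 2.34 to 61.4 CPM. All 7 hippocampal markers were detected, with sums of 583 to 851 CPM. Markers of excitatory neurons summed to 6268 to 8242 CPM and those of the hypothalamus to 1.59 to 7.09 CPM. CPM use TMM-scaled library sizes, a log2 ratio is a fitted log2 fold change of the second group over the first, values are means ± SD over n = 3 libraries, and a comparison across genes was called at an adjusted p under 0.05.

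Promoter sites are shown for every member that carries a cAMP response element or its short form, the sites bound by CREB family factors in activity-regulated genes. RefSeq promoters on GRCm38.p6 matched 8 of the 10 members, and Cpe and Vgf were not matched. In the 250 bases before the start, the full element TGACGTCA, which reads the same on both strands, was found in 3 of the 8, Pcsk1, Chgb and Scg2. Of all 32851 RefSeq promoter windows of the same length 508 held it, or 1.55%. The shorter TGACG, or CGTCA on the other strand, which each full element contains, was found in 7 of the 8 members and in 17.8% of all windows. A match describes the letters and is not evidence of binding. In the 26-base sites, capitals mark the full element or, where there is none, the short form nearest the start on either strand. The first capital lies 78 (Pcsk1), 72 (Chgb), 68 (Scg2), 175 (Scg5), 34 (Pcsk2), 44 (Chga) and 30 (Scg3) bases before the RefSeq start. Pcsk1n held neither.
Pcsk1, full element, chr13:75089770-75089795, plus strand: aggtagatcTGACGTCAagagatggc
Chgb, full element, chr2:132781561-132781586, plus strand: gctgctccgTGACGTCAgggctgagc
Scg2, full element, chr1:79440078-79440103, minus strand: ctgagccggTGACGTCAgcgtggaat
Scg5, short form, chr2:113829251-113829276, minus strand: aggaggtaaaTGACGttcataggggt
Pcsk2, short form, chr2:143546089-143546114, plus strand: ggcgggcgcgCGTCAcccgggctggc
Chga, short form, chr12:102554887-102554912, plus strand: ggcggtcctaTGACGtaatttcctgg
Scg3, short form, chr9:75684071-75684096, minus strand: gctgggtcgcTGACGccatcctcacg

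Levels were compared between genes per kb of transcript. In all 4 groups Cpe was the highest of the 10 and Pcsk1 the lowest. In 7-month saline mice Cpe had 1383 ± 137 CPM per kb and Pcsk1 3.49 ± 1.57 CPM per kb. Chgb (310.3 ± 42.5), Pcsk1n (284 ± 77.9) and Scg5 (221 ± 54.0) followed Cpe in that order. The ranges of Chgb and Pcsk1n over libraries overlapped, and so did those of Pcsk1n and Scg5. Scg3 (108 ± 4.09) overlapped neither neighbour, while Scg2, Chga, Vgf and Pcsk2 had means between 59.2 and 77.7 CPM per kb, each overlapping the next. In 18-month nicotine mice Scg5 had 81.4 ± 4.09 CPM per kb and came after Scg3 (87.0 ± 2.31) with no overlap. In 18-month saline mice it had 145 ± 9.15 CPM per kb and came after Chgb, in a range that overlapped that of Pcsk1n.

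**Figure D1:**
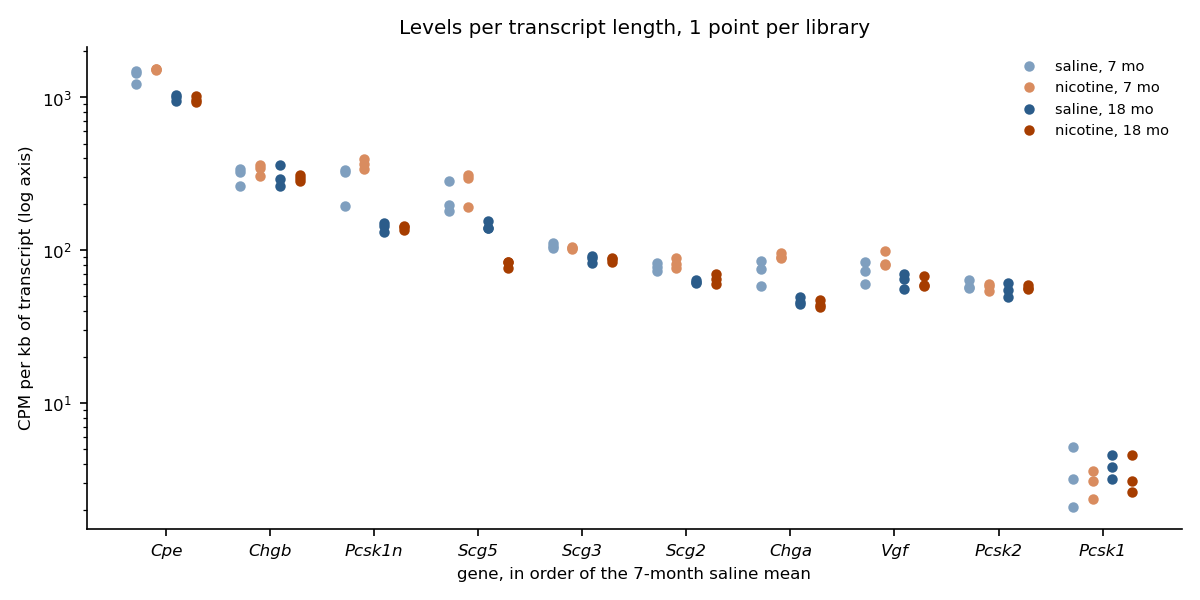
CPM per kb of transcript (log axis) of the 10 genes in each of the 12 libraries, with 1 point per library and colours for the 4 groups. Cpe is highest and Pcsk1 lowest in every group, and Scg5 lies above Scg3 in the other groups and below it in 18-month nicotine mice.

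Scg5 codes for 7B2, a chaperone that binds the precursor of the Pcsk2 convertase, is needed for its activation and holds it inactive until late in the pathway. The gene lies at chr2:113776362-113829121 on the minus strand (GRCm38, GENCODE M21). At 7 months it had 341, 239.6 and 219 CPM in saline libraries 1 to 3 and 376, 232 and 360.3 CPM in nicotine libraries 1 to 3. These values formed a higher set (saline 1, nicotine 1 and nicotine 3) and a lower set (saline 2, saline 3 and nicotine 2), and both infusions were in each. Both first 7-month libraries, saline 1 and nicotine 1, were in the higher set. Their column headers share a prefix that the other 7-month headers lack. What the prefix stands for is not stated, and its part in the values was not tested. At 18 months Scg5 had 188, 168 and 169.8 CPM with saline and 101, 101 and 92.7 CPM with nicotine. Every 18-month nicotine library lay below every 18-month saline library, and both groups lay below all 7-month libraries. In bulk tissue fewer cells that express a gene and less RNA per cell cannot be told apart. The coefficient of variation was 24.5% in each 7-month group and 6.31% (saline) and 5.02% (nicotine) at 18 months.

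Pcsk2 codes for prohormone convertase 2, the client of 7B2, and lies at chr2:143546156-143816285 on the plus strand. It had 271, 267 and 302 CPM in 7-month saline and 257, 285 and 275 CPM in 7-month nicotine libraries. At 18 months it had 291, 234 and 258 CPM with saline and 263, 281 and 268 CPM with nicotine. All groups overlapped, and the whole range over 12 libraries was 234 to 302 CPM. The antisense genes Pcsk2os1 (2.43 to 3.64 CPM) and Pcsk2os2 (0.0346 to 2.17 CPM) overlap Pcsk2, and their reads could not be told apart where strand was not counted. As a ratio of CPM per kb within a library, Scg5 per Pcsk2 was 2.53, 2.81 and 2.57 in 18-month saline and 1.51, 1.41 and 1.35 in 18-month nicotine libraries. At 7 months the same ratio was 4.93, 3.51 and 2.85 under saline and 5.72, 3.18 and 5.12 under nicotine, with overlap. The ratio holds the 18-month values of Scg5 on which the set was selected, so it is a description only.

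Pcsk1 codes for prohormone convertase 1/3, which acts early in the vesicle and opens many precursors. It was the lowest of the 10 per kb, and had 16.0, 26.2 and 10.5 CPM in 7-month saline and 15.5, 11.8 and 18.2 CPM in 7-month nicotine libraries. At 18 months it had 16.0, 19.3 and 23.0 CPM with saline and 13.2, 23.2 and 15.6 CPM with nicotine. All groups overlapped. It had 279 to 671 counts per library, and its coefficient of variation reached 45.2% in 7-month saline mice.

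Pcsk1n codes for proSAAS, a granin-like precursor whose C-terminal peptide inhibits convertase 1/3. It had 734, 427 and 711 CPM in 7-month saline and 748, 802 and 865 CPM in 7-month nicotine libraries. At 18 months it had 329.5, 289 and 319 CPM with saline and 317, 313 and 299.99 CPM with nicotine. All 18-month libraries lay below all 7-month libraries, and saline library 2 was the lowest at 7 months. Cpe, the carboxypeptidase, had 3057, 2596 and 3132 CPM in 7-month saline and 3191, 3238 and 3256 CPM in 7-month nicotine libraries. At 18 months it had 2192, 2002 and 2139 CPM with saline and 2038, 2166 and 1969.9 CPM with nicotine, again all below the 7-month libraries. The ratio of the inhibitor gene to its convertase, Pcsk1n per Pcsk1 in CPM per kb, ranged from 37.5 to 156 at 7 months and from 31.0 to 55.3 at 18 months.

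Among the granins, Chga (chromogranin A, the precursor of vasostatin and other peptides) had 161, 109 and 143 CPM in 7-month saline and 167, 169 and 180.0 CPM in 7-month nicotine libraries. At 18 months Chga had 83.4, 85.8 and 93.2 CPM with saline and 82.1, 89.6 and 79.8 CPM with nicotine. The ages did not overlap, and the 7-month nicotine libraries lay above the 7-month saline libraries. Chgb, chromogranin B, ranged from 718 to 989 CPM at 7 months and from 728 to 989.8 CPM at 18 months, with overlap of all groups. Scg2, the precursor of secretoneurin, ranged from 183 to 225 CPM at 7 months and from 151 to 176 CPM at 18 months, without overlap. Scg3, which binds chromogranin A at the vesicle membrane, ranged from 243 to 267 CPM and from 198 to 219 CPM, also without overlap. Vgf, a nerve growth factor inducible precursor of several peptides, ranged from 171 to 280.5 CPM at 7 months and from 159 to 197 CPM at 18 months. Its ranges at both ages overlapped.

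**Figure D2:**
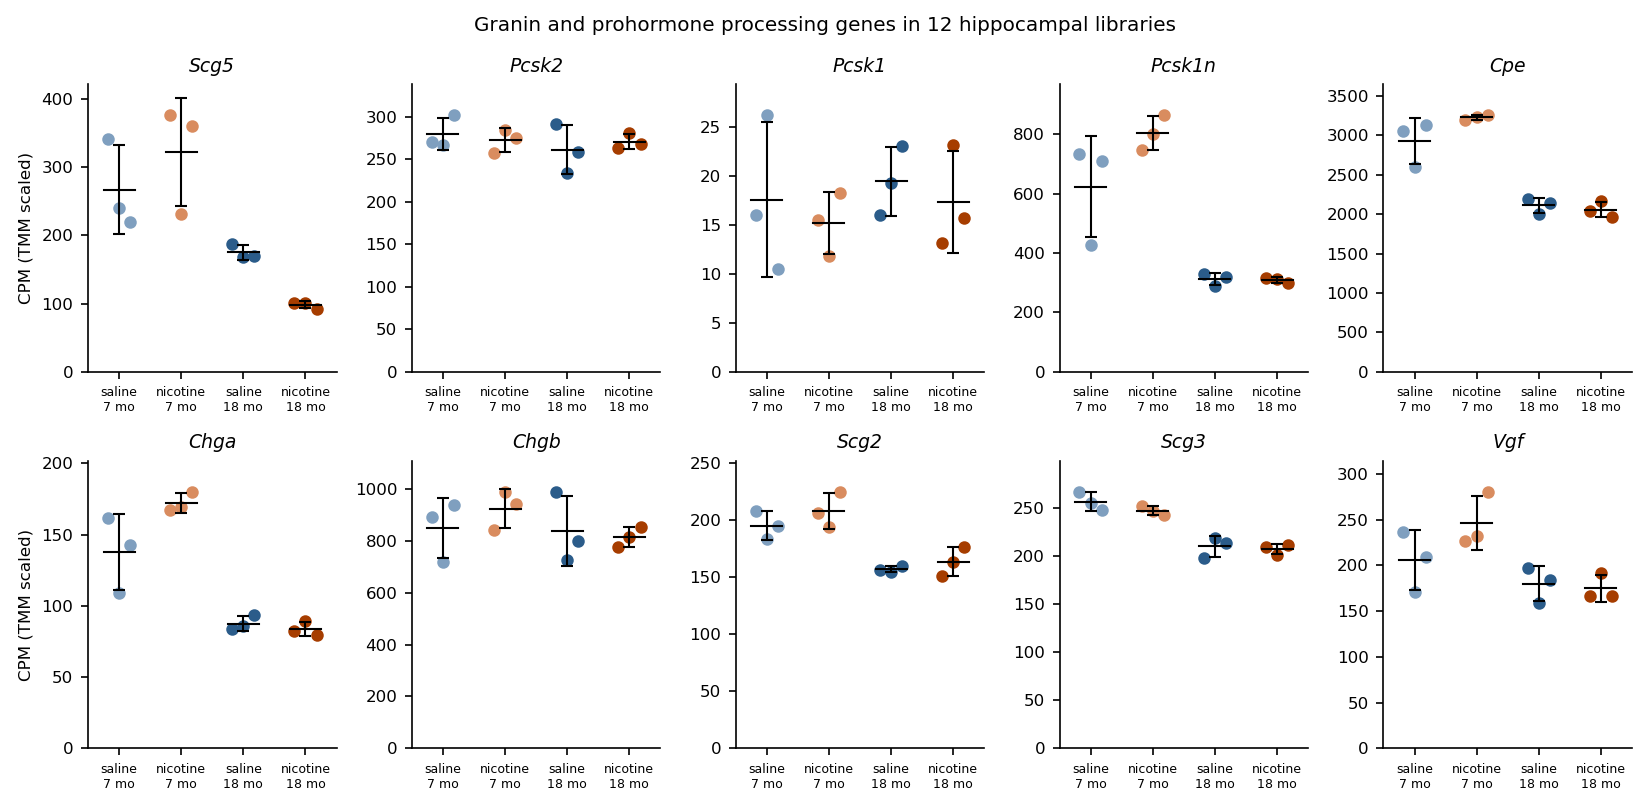
CPM of each of the 10 genes in each of the 12 libraries, 1 point per library in the order 1 to 3 within a group, with the group mean (line) and SD (bar), n = 3 libraries per group. Scg5 separates saline from nicotine at 18 months, Pcsk2 lies between 234 and 302 CPM, and Pcsk1n, Cpe and Chga are lower in every 18-month than in any 7-month library.

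Within an age, a single library often gave the lowest value. 7-month saline library 2 was the lowest of the 6 libraries of its age for 6 of the 10 genes (Pcsk1n, Cpe, Chga, Chgb, Scg2 and Vgf) and the highest for Pcsk1. 7-month nicotine library 3 was the highest for 5 (Pcsk1n, Cpe, Chga, Scg2 and Vgf). In 7-month nicotine library 1, the library with pituitary transcripts, Scg5 was at its highest and Pcsk2 at its lowest of that age, and the other 8 genes lay inside the range of the other 7-month libraries. Summed pituitary markers were 111 CPM in that library and at most 2.70 CPM in the other 11. Pomc, a pituitary and hypothalamic prohormone, had 70.0 CPM there and at most 1.45 CPM elsewhere. The part of this tissue in the values of the 10 genes was not tested beyond leaving the library out.

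The first comparison asked how nicotine changed these genes at the younger age. By edgeR's quasi-likelihood test 0 of the 10 were called at 7 months, with adjusted p from 0.656 to 0.825, in a comparison that called 0.0114% of 17596 genes. At an unadjusted p under 0.05, which 6.5% of all genes reached, it was also 0 of 10. DESeq2, which called 0.472% of all genes, called 0 as well. Of the 10 estimates 7 were above 0, with a median log2 ratio of 0.11, where the median of all genes tested was -0.01. Pcsk1n had 624 ± 171 CPM with saline and 805 ± 58.3 CPM with nicotine (log2 ratio 0.36, SE 0.19, adjusted p = 0.656). Chga had 138 ± 26.5 and 172 ± 6.89 CPM (log2 ratio 0.31, SE 0.14, adjusted p = 0.656). Pcsk1n, Chga and Cpe (log2 ratio 0.12, SE 0.10) had every nicotine library above every saline library. Among all genes tested 9.07% were higher without overlap. Without saline library 2 their log2 ratios were 0.16 (Pcsk1n), 0.18 (Chga) and 0.06 (Cpe).

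The other 7 genes overlapped between the infusions at 7 months. Scg5 had a log2 ratio of 0.26, SE 0.22 (adjusted p = 0.674), from 0.09 without saline library 2 and nicotine library 1 to 0.46 without saline library 1. Vgf had 0.25 (SE 0.14), Chgb 0.10 and Scg2 0.08 on the same scale. Pcsk2 had -0.06, Scg3 -0.07 and Pcsk1 -0.24. The direction of Pcsk1 turned without saline library 2, at 0.20, and those of Pcsk2 and Pcsk1 turned when transcript length and GC content were corrected for (0.07 and 0.01).

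Genes induced by neuronal activity were read beside these, and 17 of the 18 listed had estimates below 0 at 7 months. Fos had 33.6 ± 1.73 CPM with saline and 10.2 ± 2.82 CPM with nicotine (log2 ratio -1.73, SE 0.19, adjusted p = 0.119). Egr1 had 196 ± 23.0 and 77.5 ± 14.1 CPM (log2 ratio -1.36, SE 0.15, adjusted p = 0.119). In edgeR 1 of them fell, Egr2 (log2 ratio -3.19, SE 0.26, adjusted p = 0.0245), and 14 had an unadjusted p under 0.05 (6.5% of all genes), while 10 fell in DESeq2 (which called 0.472% of all genes). At 18 months 13 of the 18 were below 0, with 0 called in edgeR, 10 at an unadjusted p under 0.05 (6.73% of all genes) and 1, Npas4, in DESeq2 (0.313% of all genes). Their part in the values of the 10 genes was not tested. At 7 months the members with the full cAMP response element, Chgb, Scg2 and Pcsk1, had log2 ratios of 0.10, 0.08 and -0.24. None of them was called at that age.

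At 18 months the nicotine comparison called 8 of 18196 genes, or 0.044%. Scg5 had 175 ± 11.1 CPM with saline and 98.4 ± 4.94 CPM with nicotine, a log2 ratio of -0.84, SE 0.06, or 1.80-fold lower. Over 13 alternatives its log2 ratio lay between -0.86 and -0.80, and these included fits without each of the 6 libraries. The alternatives reuse the 18-month libraries that led to the choice, so this range is a description and no support for the fall. In the 1 fit over all 12 libraries no gene was called for nicotine at 18 months, Scg5 included. The 9 other genes had log2 ratios between -0.18 (Pcsk1, SE 0.21) and 0.05 (Scg2, SE 0.06), and all 9 overlapped between the infusions. Pcsk2, the client of the chaperone, had 261 ± 28.8 CPM with saline and 271 ± 9.27 CPM with nicotine (log2 ratio 0.04, SE 0.07). Among all genes tested 5.24% were lower without overlap, and Scg5 was the 1 member that was. Since the choice of the members rests on this comparison, these values are a description and nothing is read from the counts.

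**Figure D3:**
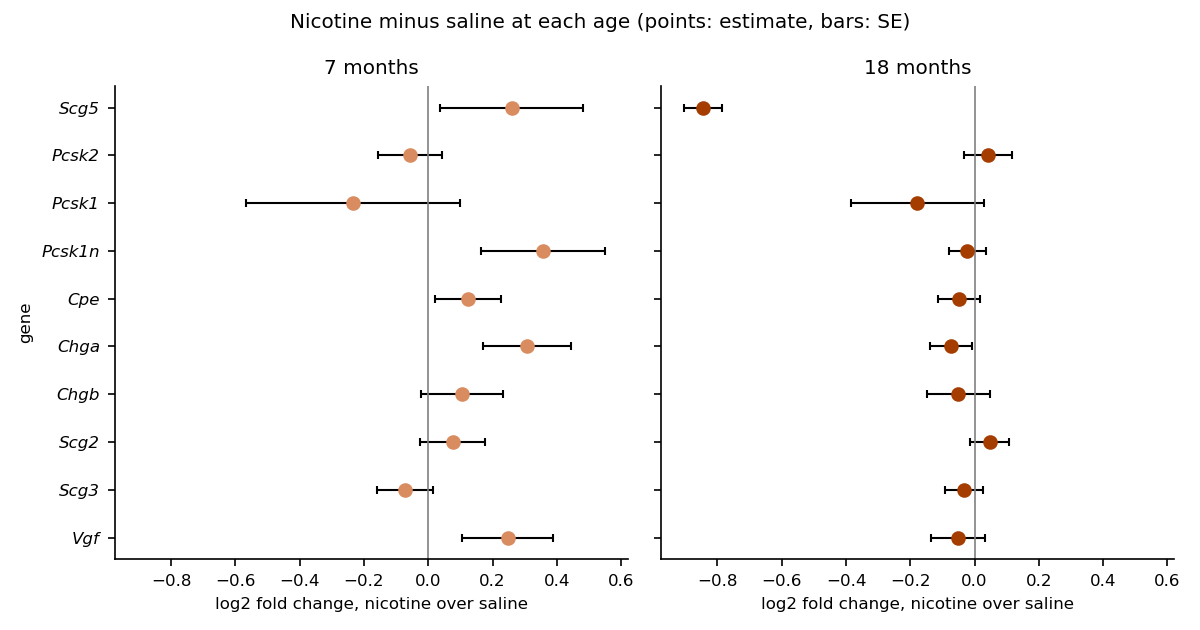
Log2 fold change of nicotine over saline for the 10 genes at 7 and at 18 months (points), with the SE from the fit of the 6 libraries of that age (bars). Scg5 lies at -0.84 at 18 months, and the other 9 genes lie between -0.18 and 0.05 there and all 10 between -0.24 and 0.36 at 7 months.

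The estimates at the 2 ages were set side by side through the difference of the nicotine effect, 18 months minus 7 months, from a fit of all 12 libraries. For Scg5 it was -1.10, SE 0.26, and it lay between -1.31 and -0.94 over 20 alternatives. The values nearest to 0 came without 7-month saline library 2 and nicotine library 1 (-0.94) and without nicotine library 1 alone (-0.99). For the other 9 genes it lay between -0.38 (Chga, SE 0.17, and Pcsk1n, SE 0.23) and 0.10 (Pcsk2, SE 0.13). Averaged over both ages the effect on Scg5 was -0.28, SE 0.13. The difference was called for 0.00522% and the average for 0.0365% of 19171 genes. No test is given for the members, since they hold the 18-month libraries that led to the choice.

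Age was compared within each infusion, with tests for the 9 genes other than Scg5. Under saline 5 of the 9 were lower at 18 months and 0 were higher, in a comparison that called 46.1% of 19171 genes, 24.6% lower. Pcsk1n fell from 624 ± 171 to 312 ± 21.1 CPM (log2 ratio -0.96, SE 0.16, adjusted p = 0.000894). Chga fell from 138 ± 26.5 to 87.5 ± 5.13 CPM (log2 ratio -0.62, SE 0.12, adjusted p = 0.00179). Cpe fell from 2929 ± 290.5 to 2111 ± 97.9 CPM (log2 ratio -0.44, SE 0.09, adjusted p = 0.00262). In these 3 genes, an inhibitor, a granin and the carboxypeptidase, and in the 2 that follow, all 3 libraries at 18 months lay below all 3 at 7 months, as in 28.0% of all genes. Scg2 (-0.28, SE 0.08, adjusted p = 0.017) and Scg3 (-0.25, SE 0.07, adjusted p = 0.00925) also fell. Vgf (-0.15, adjusted p = 0.346), Pcsk2 (-0.07), Chgb (0.02) and Pcsk1 (0.18) did not pass.

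Under nicotine 6 of the 9 were lower at 18 months and 0 were higher, where 59.3% of all genes were called and 29.8% were lower. Pcsk1n fell 2.53-fold (log2 ratio -1.34, SE 0.16, adjusted p = 7.43e-05) and Chga from 172 ± 6.89 to 83.8 ± 5.10 CPM (log2 ratio -0.997, SE 0.12, adjusted p = 6.9e-05). Cpe (-0.61, adjusted p = 0.000194), Vgf (-0.45, adjusted p = 0.00972), Scg2 (-0.31, adjusted p = 0.00708) and Scg3 (-0.21, adjusted p = 0.0155) also fell. Pcsk2 (0.03), Pcsk1 (0.23) and Chgb (-0.14) did not pass. The 6 that fell were lower without overlap, as were 36.5% of all genes. The comparisons within each infusion use different libraries, and whether they differ is the difference of the nicotine effect given above. Scg5, as a description, had a log2 ratio of -0.57, SE 0.18 under saline and -1.67, SE 0.19 under nicotine. Without 7-month saline library 2 and nicotine library 1 the counts were 5 of 9 under saline and 6 of 9 under nicotine. In those fits 11969 of 19332 genes were called under saline, 5778 of them lower, and 12021 under nicotine, 5888 of them lower.

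Age cannot be told apart from whatever differed between the 2 tables and their libraries, and the share of long transcripts moved with it. So did Malat1, a nuclear RNA, at 285 to 388 CPM in 7-month and 5106 to 6215 CPM in 18-month libraries. Reads of the ribosomal gene Rn18s-rs5 were at 459.6 to 18312 CPM and 21508 to 26957 CPM. Zbtb20, a hippocampal marker, had a log2 ratio of 4.71 under saline, and Grin2b, an excitatory marker, had 3.40 under saline and 5.52 under nicotine. Of 7 astrocyte markers 4 rose and 2 fell with age under each infusion, among them Gfap (up, 1.18 under saline) and Aldoc (down, -0.53 and -0.81), and their sum was 4032 to 4885 CPM and 5709.7 to 6294 CPM. Of 18 activity genes 1 rose and 1 fell with age under saline, and 10 rose and 2 fell under nicotine. Among all genes 21.5% rose and 24.6% fell under saline, and 29.5% rose and 29.8% fell under nicotine. With a correction of each library for transcript length and GC content 3 astrocyte markers rose and 3 fell under saline. Under nicotine 3 rose and 2 fell. Of the activity genes 1 rose under saline, 12 rose under nicotine and 0 fell with that correction. It left 14.0% of all genes higher and 25.3% lower under saline, and 18.5% higher and 30.0% lower under nicotine. The part of these transcripts and markers in the age differences was not tested. The transcripts of the 10 members are 1208 nt (Scg5) to 5040 nt (Pcsk1) long. With the same correction, Pcsk1n (-0.66 under saline and -0.87 under nicotine), Chga (-0.33 and -0.50) and Cpe (-0.30 and -0.41) still passed as lower in both. Scg2 and Scg3 no longer passed under either infusion (adjusted p = 0.113 and 0.102 under saline, 0.0617 and 0.303 under nicotine), nor did Vgf under nicotine (-0.07, adjusted p = 0.534). Pcsk2 passed as lower under nicotine (-0.30, adjusted p = 0.0393), and Chgb turned positive (0.18) and Pcsk1 negative (-0.15) there. Vgf turned positive under saline (0.06). The correction also moved the split of all calls, from 4124 higher and 4720 lower to 2275 and 4102 under saline, and from 5659 and 5709 to 3004 and 4863 under nicotine. Single libraries decided some of the smaller falls. Scg2 under saline had adjusted p = 0.0666 without 7-month saline library 1 and 0.0506 without 18-month saline library 2, and Scg3 under nicotine had 0.055 without 18-month nicotine library 2.

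**Figure D4:**
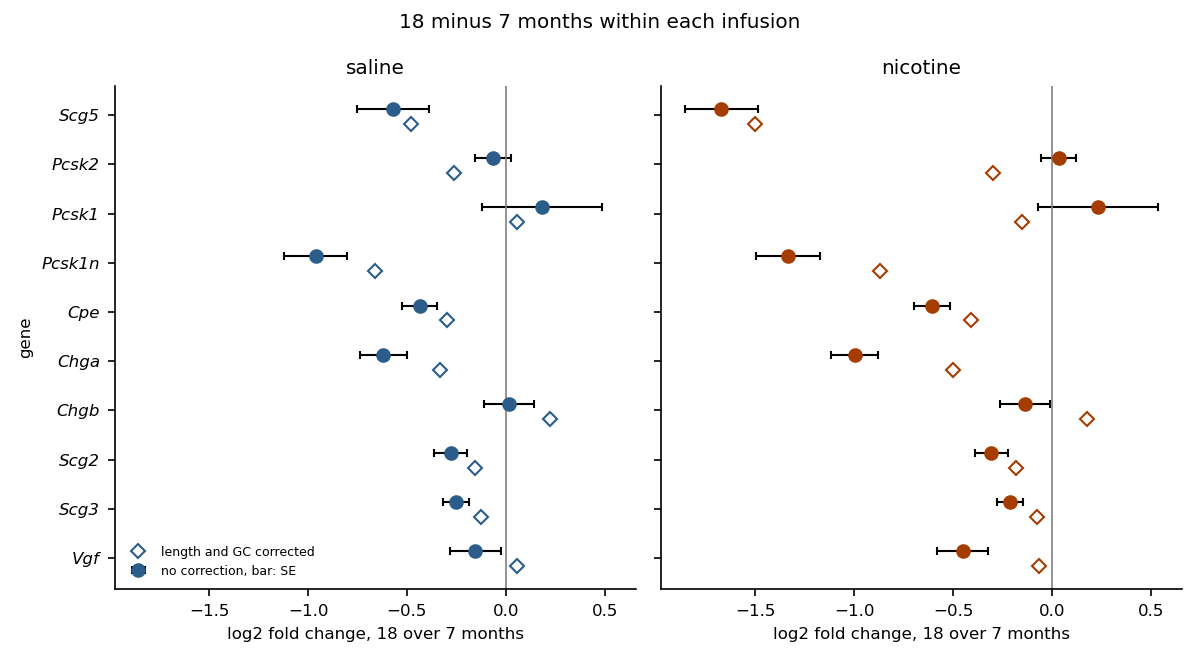
Log2 fold change of 18 over 7 months for the 10 genes within saline and within nicotine mice, from the fit of all 12 libraries (filled points, bars are SE) and after correction for transcript length and GC content (open diamonds). Pcsk1n, Cpe, Chga, Scg2, Scg3 and Scg5 lie below 0 with and without the correction. With the correction Pcsk1, Pcsk2 and Chgb cross 0 under nicotine, and Vgf crosses 0 under saline and comes near it under nicotine. Scg5 is a description with no test.

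Genes of the same pathway were read from lists chosen with earlier results of these data known. Of 7 other convertases, which act along the general secretory pathway, 6 were measured. None passed under nicotine at either age, in edgeR, in DESeq2 or at an unadjusted p under 0.05. With age 2 rose under saline, Furin (log2 ratio 0.45, SE 0.08, adjusted p = 0.00131) and Pcsk7 (log2 ratio 0.21, SE 0.08, adjusted p = 0.0408), and 0 fell, where 21.5% of all genes rose and 24.6% fell. Under nicotine 3 rose with age, among them Furin (log2 ratio 0.36), and 1 fell, Pcsk4 (-0.53), where 29.5% of all genes rose and 29.8% fell. With the length and GC correction these counts were 2 up and 1 down under saline, and 1 up and 1 down under nicotine. With that correction 14.0% of all genes rose and 25.3% fell under saline, and 18.5% rose and 30.0% fell under nicotine. Of 13 genes for trimming, amidation and breakdown of peptides 11 were measured and 0 passed under nicotine at either age in either tool. At 7 months 1, Cpd, had an unadjusted p under 0.05 in edgeR (6.5% of all genes). With age 1 rose and 1 fell under saline (Ece1, an endothelin-converting enzyme, and Qpct, a glutaminyl cyclase), and 2 rose and 2 fell under nicotine, where 46.1% and 59.3% of all genes were called.

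Most of the listed prohormones, the cargo of these vesicles, were lower with age. Of 37 listed 27 were measured in the joint fit, and 26 of the 27 estimates were below 0 with age under saline and 27 under nicotine. Of these 16 fell under saline and 21 under nicotine, and 0 rose in either, where 24.6% and 29.8% of all genes fell. With the length and GC correction 25 of 27 estimates were below 0 under each infusion, 13 and 18 fell and 0 rose, where 25.3% and 30.0% of all genes fell. The corrected median log2 ratios were -0.69 and -0.90, where those of all genes were -0.07 and -0.09. Without the correction the medians were -0.86 and -1.11, where those of all genes were -0.03 and -0.03. Without 7-month saline library 2 and nicotine library 1, 17 and 18 of the 27 fell, where 5778 and 5888 of all 19332 genes fell. Sst, which codes for somatostatin, had 208, 232 and 258 CPM in 7-month nicotine and 76.1, 89.1 and 68.0 CPM in 18-month nicotine libraries (log2 ratio -1.54, SE 0.17, adjusted p = 5.22e-05). Npy, which codes for neuropeptide Y, had 44.1, 47.4 and 62.9 CPM and 19.5, 20.4 and 21.5 CPM in the same groups (log2 ratio -1.29, SE 0.19, adjusted p = 0.000192). In both genes the ages did not overlap under nicotine. Pnoc, the precursor of nociceptin, fell under saline (log2 ratio -0.95, SE 0.19, adjusted p = 0.00196), and so did Vip (log2 ratio -0.69, SE 0.13, adjusted p = 0.00194). Interneuron markers moved in both directions beside them. Of 9, including Sst and Vip, 1 rose and 3 fell with age under saline, and 2 rose and 4 fell under nicotine. Pvalb, of basket cells, fell (-1.38, adjusted p = 0.000548 under saline and -1.57, adjusted p = 0.000116 under nicotine). Reln rose (0.60, adjusted p = 0.0109 and 0.70, adjusted p = 0.00297). The 7 that are not prohormones summed to 495 to 665 CPM in 7-month and 508 to 545 CPM in 18-month libraries over these opposite changes. With the length and GC correction 0 of the 9 rose, Reln included, and 3 fell under saline and 4 under nicotine. The part of interneurons in the fall of prohormones was not tested.

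Under nicotine no prohormone passed at either age in edgeR. At 7 months 21 of 27 estimates were above 0 and 5 had an unadjusted p under 0.05 (6.5% of all genes), while DESeq2, at 0.472% of all genes, called 1, Grp, the precursor of gastrin-releasing peptide (log2 ratio 0.84, SE 0.22, adjusted p = 0.0299). Grp had 13.6, 11.2 and 8.11 CPM with saline and 22.3, 19.1 and 18.0 CPM with nicotine. Without saline library 2 and nicotine library 1 the count above 0 was 15 of 27 and the median fell from 0.22 to 0.06. At 18 months 10 of 23 were above 0. In edgeR 1, Nts, had an unadjusted p under 0.05 at that age (6.73% of all genes), while DESeq2 called 0.

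Of the machinery that forms and releases dense-core vesicles, members rose and fell with age. Of 30 listed genes 28 were measured, and 0 passed under nicotine at either age in edgeR or in DESeq2. In edgeR 1 at 7 months (6.5% of all genes) and 2 at 18 months (6.73% of all genes) had an unadjusted p under 0.05. With age 5 rose and 8 fell under saline and 11 rose and 12 fell under nicotine, where 21.5% and 24.6% of all genes rose and fell under saline and 29.5% and 29.8% under nicotine. With the length and GC correction 2 rose and 7 fell, and 7 rose and 10 fell. That correction left 14.0% of all genes higher and 25.3% lower under saline, and 18.5% higher and 30.0% lower under nicotine. Rab3a, which codes for a vesicle GTPase, fell under saline (log2 ratio -0.61, SE 0.11, adjusted p = 0.00161), and Resp18, a gene of dense-core vesicles, fell under nicotine (log2 ratio -1.71, SE 0.26, adjusted p = 0.000211). Syt7, a calcium sensor of release, rose under nicotine (log2 ratio 0.66, SE 0.11, adjusted p = 0.000352). Of the 3 listed receptors of granin-derived peptides 2 were measured. C3ar1, a receptor of the TLQP-21 peptide of Vgf that microglia express, rose with age under saline (log2 ratio 1.55, SE 0.24, adjusted p = 0.000649) and under nicotine (log2 ratio 1.49, SE 0.24, adjusted p = 0.000328). Gpr83, a receptor of a proSAAS peptide, fell with age under saline (log2 ratio -0.26, SE 0.09, adjusted p = 0.0269) and under nicotine (log2 ratio -0.32, SE 0.09, adjusted p = 0.00725).

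The genes most like Scg5 were ranked by Pearson's r of log2(CPM + 0.5), centred within each age, over the 12 libraries, among 13968 genes with a mean of at least 1 on that scale in both ages. This is a description of libraries that share depth and scaling, and no p is given. The 5 highest were Nim1 (r = 0.927), Gm11839 (r = 0.892), Traf4 (r = 0.882), Neil2 (r = 0.866) and Cdca7 (r = 0.865). Nim1 had 18.9, 17.3 and 17.7 CPM in 18-month saline and 15.6, 15.4 and 15.7 CPM in 18-month nicotine libraries. Of the other 9 members Vgf (r = 0.432) and Chga (r = 0.427) were the highest, at places 1065 and 1095 of the ranking. Pcsk2 had r = -0.365, at place 12283.

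**Figure D5:**
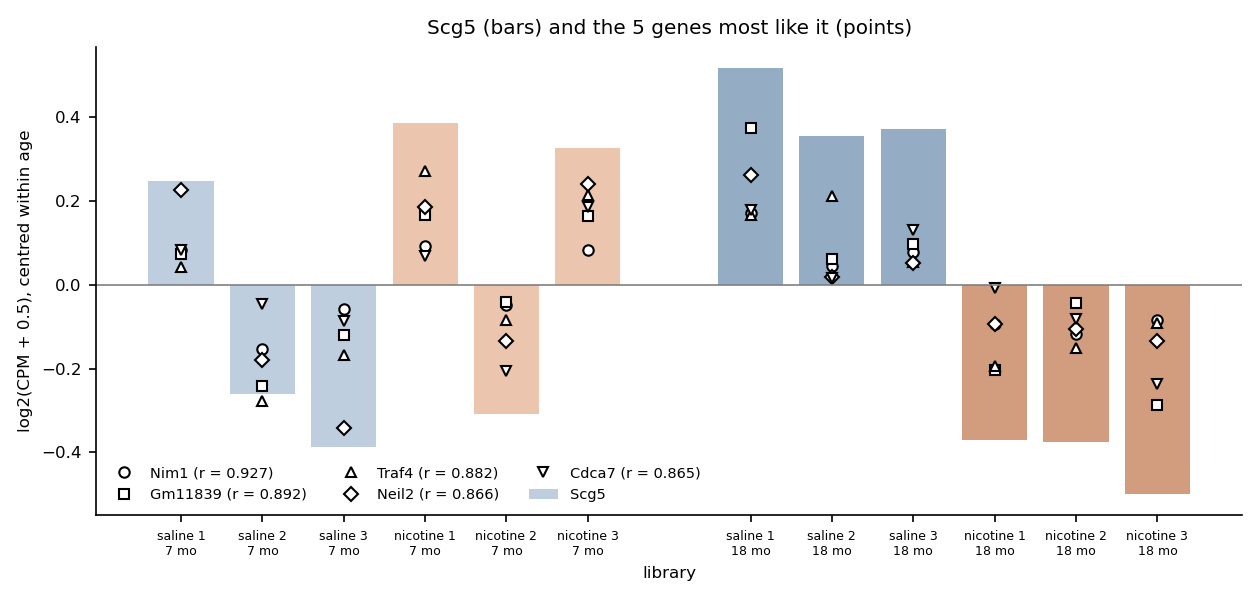
Log2(CPM + 0.5), centred within each age, of Scg5 (bars) and of the 5 genes with the highest Pearson's r with it (points) in the 12 libraries. All 6 are above 0 in 7-month saline library 1 and nicotine libraries 1 and 3 and in all 18-month saline libraries, and below 0 in the other 6 libraries. The 5 genes were picked for likeness over these same libraries, so the shared signs come largely from the choice.

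The genes beside Scg5 on chromosome 2 were read as well. Fmn1, which codes for a formin and lies at chr2:113327736-113716767, had 37.9, 33.5 and 37.8 CPM in 18-month saline and 24.8, 28.1 and 26.9 CPM in 18-month nicotine libraries (log2 ratio -0.47, SE 0.07, adjusted p = 0.0975 in edgeR). DESeq2 called it, with adjusted p = 0.00151. Grem1, which lies between Fmn1 and Scg5 at chr2:113746164-113758646 and codes for a secreted antagonist of bone morphogenetic proteins, had 2.03, 1.37 and 1.83 CPM with saline and 2.34, 3.62 and 3.46 CPM with nicotine (log2 ratio 0.83, SE 0.23, adjusted p = 0.543). Neither overlapped between the infusions, and they lay in opposite directions. Arhgap11a and Ryr3 overlapped, with log2 ratios of -0.0042 and -0.0037. A wider window was chosen after the data were seen. Within 5 Mb of Scg5, 12 of 48 other genes tested at 18 months did not overlap between infusions, 7 higher and 5 lower, or 25.0%. Among all genes tested 11.4% did not overlap. None of the 48 passed in edgeR, which called 0.044% of all genes. An unadjusted p under 0.05 was reached by 9 of them and by 6.73% of all genes.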

How the data were processed

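Hippocampal RNA was read in 12 sequencing libraries. The authors deposited raw fragment counts per gene, with no normalization, in 1 table per age. The submitters' processing notes name TopHat and GRCm38. The counting tool, annotation and strand setting are not given in the sources used here, and the labels' protocol describes a small RNA kit although the counts cover mRNA. Depth of 21260068 to 29245972 counts per library limits precision by counting error only. Tables of 44788 (7 months) and 44786 (18 months) genes were joined by name to 44760.

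The tool was edgeR 4.0.16 (R 4.3.3), with TMM factors, filterByExpr, the quasi-likelihood test and Benjamini-Hochberg adjustment at 0.05. Nicotine was tested within each age on 6 libraries. Fits of all 12 gave its mean effect, how that effect differed by age, and age within each infusion. An SE is the size of a log2 fold change over the root of its F. An exact permutation of 3 against 3 libraries cannot go below a two-sided p of 0.1. Procedures were tested on simulated data. Alternatives were RLE factors, no low-count filter, DESeq2 1.42.0, a replicate block, libraries left out, all 12 libraries in 1 fit, and offsets from splines with 4 degrees of freedom on transcript length and GC content (GENCODE M21, 84.5% to 88.0% of tested genes). The same genes without offsets were added after the data were seen.

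The members and lists were chosen with earlier results of these data known. Named are all 10 members, up to 4 genes of a list with the smallest p, Gh, Prl, Ttr, Fos and Egr1, the genes beside Scg5 and the 5 most like it. Same-number libraries had correlations of -0.187 to 0.274 between their departures from group means, so numbers were not used as pairs. BLAST 2.17.0 (95% identity over 200 nt) matched 1 member, Pcsk2, to another gene, Pcsk2os1. Promoter windows come from RefSeq, GRCm38.p6. Figures used matplotlib 3.10.9 in Python 3.11.15.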

Additional observations from a re-analysis of the deposited data

How the results depend on the processing

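The counts of members called kept within 1.5 times of their values under every alternative except under saline with age, where 5 of 9 became 3 with the length and GC correction and 3 without both first 7-month libraries. Leaving out 1 library at a time gave 0 of 10 members at 7 months, 4 to 5 of 9 with age under saline and 5 to 6 of 9 under nicotine. Counts over all genes depended more on the choices. For nicotine at 7 months (2 genes) they were 6 with no filter on low counts, 83 with DESeq2, 1 with the replicate block, 9 with all 12 libraries in 1 fit, 0 without both first libraries, 1 without saline library 2 and nicotine library 1, and 0 to 2 with 1 library left out. For nicotine at 18 months (8 genes) they were 35 with no filter, 57 with DESeq2, 9 with the replicate block, 0 with all 12 libraries in 1 fit, and 5 to 21 with 1 library left out. For the average effect (7 genes) they were 15 with no filter, 79 with DESeq2, 12 with the length and GC correction, 5 with the block, 43 without saline library 2 and nicotine library 1, and 2 to 21 with 1 library left out. For the difference between ages (1 gene) they were 36 with DESeq2, 0 with the block, 2 without both first libraries, 6 without saline library 2 and nicotine library 1, and 0 to 3 with 1 library left out. With age under saline (8844 genes) the count was 5852 without both first libraries and 11969 without saline library 2 and nicotine library 1. It was 6251 to 11793 with 1 library left out. Under nicotine (11368 genes) the count was 12021 without saline library 2 and nicotine library 1, and 10137 to 10426 with 1 library left out. The replicate block gave 8511 and 11017 genes with age and changed no call of a member among those tested.

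Directions turned for estimates that had not been called. At 7 months Pcsk2 was 0.072 and Pcsk1 0.0076 with the length and GC correction, and Pcsk1 was 0.20 without saline library 2 and 0.19 also without nicotine library 1. With age under saline Pcsk2 was 0.00098 over genes with a known length, 0.0013 without 7-month saline library 3 and 0.0043 without 18-month saline library 2, with -0.15 as the lowest when 1 library was left out. Pcsk1 ranged from -0.073 to 0.62 and Chgb from -0.12 to 0.11 with 1 library left out. Chgb was -0.019 with no filter and -0.060 without saline library 2 and nicotine library 1, and Vgf was 0.055 with the correction. With age under nicotine Pcsk2 was -0.0087 with no filter, -0.30 with the correction, where it was called, -0.0080 without both first libraries and -0.0058 without saline library 2 and nicotine library 1. It ranged from -0.016 to 0.066, and Pcsk1 from -0.042 to 0.40, with 1 library left out. With the correction Pcsk1 was -0.15 and Chgb 0.18. At 7 months Pcsk1 ranged from -0.50 to 0.20 with 1 library left out. The cause was not tested.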
